A study of Neurospora crassa with 12 samples.

Results

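Head-to-head natural antisense transcripts (NATs) are described here as they occur in Neurospora crassa, a filamentous fungus. A NAT was called head-to-head when it started inside the annotated gene on the opposite strand, was transcribed out through the 5′ end of that gene, and ended upstream of it, in the region where a promoter lies. The rule required at least 1 bp shared between the exons of the NAT and of its partner gene, no shared exon base with an annotated gene on the same strand, and an end at least 1 bp past the annotated 5′ end of the partner. Of the 2440 unannotated transcripts that were antisense to an annotated gene, 302 were members (12.4%, exact Clopper-Pearson 95% interval 11.1 to 13.7), out of 10690 unannotated transcripts and 21475 transcripts in all. The other antisense transcripts lay within the span of their partner (963), passed its 3′ end in the mirror arrangement called tail-to-tail (802), or ran past both ends (373). Head-to-head NATs therefore made up 27.4% of the 1104 that passed only 1 end. The members were chosen by their assembled positions, strand and shared bases, so these shares are descriptions without a test.

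The RNA came from mycelia of 3 strains, grown for 2 days at 25 °C. WT, Δset-1 (also Δkmt2, without the methyltransferase of histone H3 lysine 4) and Δdim-5 (also Δkmt1, without that of lysine 9) were each kept in constant dark for 24 h (DD24) or given 30 min of light at the end of the dark period (LP30), with 2 replicates in each of the 6 groups. The deposited file is a single annotation assembled by the authors from all 12 libraries, which records where every transcript and exon lies and on which strand, but no expression value. A NAT in it may thus have been seen in any strain and in either condition, its level is unknown, and the depth behind it is unknown. Values below are lengths and positions on genome build NC12, and a test compares transcripts or genes of this 1 annotation, which are not replicates of a strain or of light. Transcripts of 1 locus also share their sequence, and the 302 members came from 273 loci of the assembly.

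Antisense transcription over a promoter is known from many fungi. RNA polymerase that moves out through a gene's start passes the sites where initiation factors assemble, and it can carry histone marks of transcribed chromatin, among them methylation of H3 lysine 4 and lysine 36, across that start. In budding yeast such transcripts have been tied to repression as well as to activation of the gene they leave. In N. crassa the best known NAT is the antisense RNA of the clock gene frq.

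The members had 272 partner genes, 2.80% of the 9730 annotated genes. Of these partners, 250 had a single member, 16 had 2, 4 had 3 and another 2 had 4. Members were spread over both strands, 148 on the plus and 154 on the minus strand. They started at a median of 425.5 bp from the annotated start of the partner (lowest 3 bp, highest 4572 bp). The start lay within 100 bp of the gene's own start for 49 members (16.2%), within 500 bp for 164 (54.3%) and within 1000 bp for 221 (73.2%). From the 5′ end of the partner they reached a median of 415 bp upstream, with quartiles of 164.5 and 1055.5 bp and a highest value of 6102 bp. At least 100 bp of upstream sequence was covered by 247 members (81.8%) and at least 1000 bp by 80 (26.5%). In the plot of all spans, long and short upstream stretches occur beside shallow and beside deep starts.

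**Figure D1:**
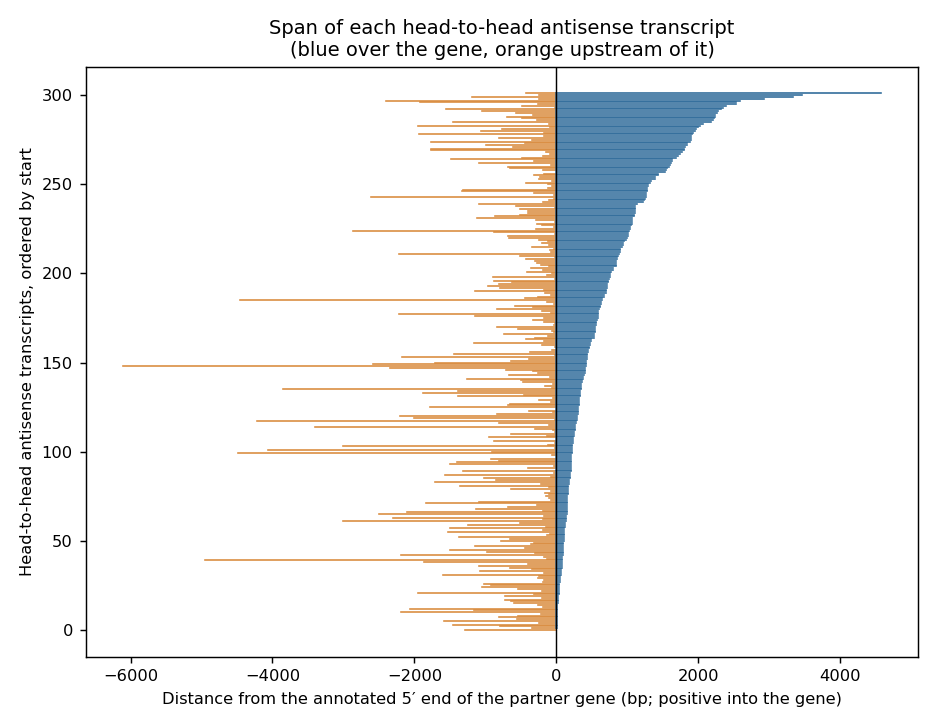
Each horizontal line is 1 of the 302 head-to-head antisense transcripts, placed by its distance in bp from the annotated 5′ end of the partner gene (x axis, positive into the gene) and ordered by its own start (y axis). The blue side runs into the gene to at most 4572 bp and the orange side runs upstream to at most 6102 bp.

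Overlap between the exons of a NAT and those of its partner ranged from 3 to 4443 bp, with a median of 309 bp. In 136 members (45.0%) more than 50% of the NAT's own exonic bases lay in exons of the partner. At the low end, 31 members (10.3%) shared under 50 bp and 57 (18.9%) under 100 bp. At the high end, 108 members (35.8%) covered more than 50% of the partner's span and 40 (13.2%) covered more than 90%. The class therefore runs from transcripts that only brush the start of a gene to transcripts that fall short of a full-length antisense copy by a few bases.

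The deepest overlaps were at genes known by their NCU numbers only. MSTRG.4112.1 (II:2557149-2562153, plus strand) shared 4443 bp with NCU01747 and ended 433 bp upstream of it. The next were the NATs of NCU03643 (3180 bp), NCU07114 (2973 bp), NCU07068 (2805 bp) and NCU10392 (2585 bp). Of the partner's span, 99.9% was covered at NCU09800, 99.3% at each of NCU03643, NCU06386 and NCU00520, and 99.0% at NCU16348.

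The furthest upstream reach had another shape. MSTRG.6383.1 (III:5177759-5184281, plus strand) started in intron 2 of NCU08777, shared 106 bp with its exons and ended 6102 bp upstream, as a transcript of 3 exons and 6381 nt. The NAT of NCU11260 reached 4950 bp from an overlap of 83 bp, those of NCU03520 reached 4489 and 4462 bp from 105 and 177 bp, and that of NCU05988 reached 4212 bp from 195 bp. In these 5 transcripts nearly all of the NAT lay outside the gene that made it a member. Even so, MSTRG.6383.1 covered 70.8% of its partner's span and MSTRG.3428.1, at NCU03520, covered 82.3%. The rest covered 9.2% to 27.7%.

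Most members had a single exon. That was so for 216 of 302 (71.5%, interval 66.1 to 76.5), and these have no splice site that could give their strand independently of the library. Their antisense call rests on the strand in the file. The study states that strand was kept, but the name of the library kit in the labels does not say so, and this was not tested. Of the spliced members, 61 had 2 exons, 18 had 3, 6 had 4 and 1 had 5. Exonic length ran from 202 to 6381 nt, with a median of 1121.5 nt. The 119 introns of the 86 spliced members had a median length of 82 nt, and the 17854 introns of the annotated transcripts had a median of 76 nt. The most finely spliced member was MSTRG.8511.1 (V:656863-658753, minus strand) at NCU16929, with 5 exons, 1645 nt and introns of 52, 77, 57 and 60 nt. It started in intron 3 of its partner, shared 288 bp and ended 875 bp upstream.

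Most introns of the partner that a NAT crossed lay within 1 of its exons. In all, 88 members crossed 140 introns of their partners, and 127 of these introns (90.7%, interval 84.6 to 95.0) lay whole within an exon of the NAT. A single-exon NAT contains every intron it crosses by definition, and 216 of the 302 members had a single exon. The share thus follows in part from exon number, and spliced members were not counted apart. Among the 238 members whose partner had introns, the NAT started in exon 1 of the partner for 117 (49.2%), in an intron for 55 (23.1%) and in the last exon for 57 (23.9%). An intron with the same ends as one of an annotated transcript on the other strand was found in 1 of the 86 spliced members, MSTRG.5147.1 at NCU16635, and in 10 of 293 spliced tail-to-tail transcripts.

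Upstream of the partner lay either a divergent gene, whose own start faces that of the partner, or a tandem gene on the partner's strand. A divergent gene came next for 164 members (54.3%) and a tandem gene for 138 (45.7%), and over the 9725 annotated genes with a gene upstream the shares were 55.2% and 44.8%. The gap to that gene was long. Its median was 1300 bp for the members and 781 bp over all genes, and this held both for divergent neighbours (1417 and 758 bp) and for tandem neighbours (1220 and 821 bp). No test was made of this. The rule bars a NAT from the exons of a divergent gene but not from those of a tandem gene. Reach was a median of 405 bp toward a divergent gene and 426.5 bp toward a tandem gene.

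Toward a divergent gene the NAT pointed along that gene's own strand. None of the 164 reached its near end, which the rule itself bars for exons, and a median of 748.5 bp was left between the NAT's end and the divergent gene (lowest 33 bp, at NCU08485 before mus-27). The distance left was at most 100 bp for 10 members, at most 250 bp for 30 and at most 500 bp for 65 of 164. Members that end this close lie head to tail with the next gene on their own strand, and in pooled assemblies a NAT and a 5′ extension of that gene cannot be told apart by position alone. An unannotated isoform of an annotated gene on the same strand shared bases with 5 members, and 4 had an annotated transcript in their assembly locus.

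Toward a tandem gene the NAT could run on into its 3′ end, and 30 of 138 (21.7%) did. These 30 transcripts were antisense to both genes, with a median of 252 bp shared with the upstream gene (4 to 1752 bp). Of them, 26 ended within the upstream gene and 4, at NCU08183, NCU08178 and NCU10392, ran through the whole of it. The largest such overlap was at NCU00904, where MSTRG.2257.1 (I:6808242-6812216, minus strand) was a single exon of 3975 nt, with 1930 bp in the partner and 1752 bp in NCU00905. Its gap between the genes was 97 bp. At NCU10392 the second overlap was 1653 bp, at NCU08178 it was 1461 bp, at NCU11411 it was 1095 bp and at NCU08183 it was 958 bp. The other 108 members beside a tandem gene stopped with a median of 954.5 bp to spare.

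**Figure D2:**
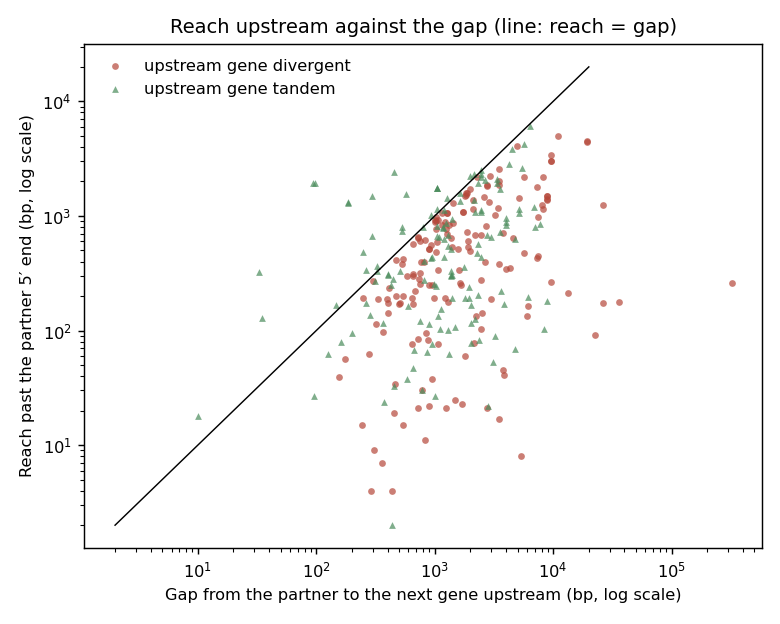
Reach of each head-to-head antisense transcript past the 5′ end of its partner (y axis, bp, log scale) against the gap from the partner to the next annotated gene upstream (x axis, bp, log scale), by orientation of that gene. Points above the line run past the near end of the upstream gene; all are tandem cases. The 2 members whose upstream gene overlaps or touches the partner are not drawn.

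Partners with gene symbols numbered 30, or 2.68% of the 1118 annotated genes that have one, and they included light and clock genes. Of a list of 24 light-sensing and clock genes, 3 were partners (12.5%): vvd, cka and ccg-14. The list was chosen with earlier results known, so this count is read against the 2.80% of all genes without a test. The photoreceptor gene vvd (NCU03967), which acts in photoadaptation, lies at VI:2268533-2271812 on the minus strand. Its head-to-head NAT, MSTRG.11342.1 (VI:2271390-2274395), was a single exon of 3006 nt that started in exon 1, shared 423 bp and reached 2583 bp upstream. It covered most of the 3457 bp gap to NCU03968 and left 874 bp. A sense transcript of the upstream region shared 2195 bp with it, so the pooled annotation places transcripts on both strands of this promoter region. Both have a single exon, and their strands, as above, were not tested. Another antisense transcript lay inside vvd. The paper reports a light-activated NAT of vvd and an upstream sense-antisense pair of lincRNAs, which were not matched to these transcripts.

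The gene cka (NCU03124) encodes the catalytic subunit of casein kinase II, which phosphorylates the clock protein FRQ. Its NAT (I:4644934-4647010, plus strand) was a single exon of 2077 nt of which only 16 bp lay in the gene, and 2061 bp lay upstream. A sense transcript shared 1211 bp with it there. The clock-controlled gene ccg-14 (NCU07787, V:301242-304089, plus strand) had 3 NATs, and it was the only partner whose members came from 2 assembly loci. MSTRG.8405.1 had 1 exon of 3668 nt, MSTRG.8406.1 had 2 exons and 3144 nt, and MSTRG.8406.2 had 4 exons and 2912 nt. They shared 262, 227 and 135 bp with exon 1 of ccg-14 and reached 3406, 3011 and 3011 bp into a gap of 9667 bp, beyond which lies the divergent gene col-26. The 3 light and clock partners thus had long upstream NATs with shallow starts. The shortest reach among their 5 head-to-head NATs, 3 of them at ccg-14, was 2061 bp, against the median of 415 bp for all members. The upstream gaps at vvd and ccg-14 (3457 and 9667 bp) were also above the member median of 1300 bp. Partners outside this list had NATs of the same shape. One of stk-52 reached 2109 bp and one of ff-1 reached 2504 bp, each from 146 bp shared.

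Signalling genes were the other listed partners. Of 16 MAP kinase cascade genes, mak-2 and os-1 were partners (12.5%), and of 20 genes of G protein, cAMP and RAS signalling, ric8 was one (5%). Over all genes the share was 2.80%. These lists too were chosen with earlier results known, and no test was made. The gene mak-2 (NCU02393) encodes a MAP kinase of growth and cell fusion. Its NAT (VII:2657291-2658816, plus strand) shared 171 bp and reached 1355 bp of a 1642 bp gap. The osmosensing histidine kinase gene os-1 (NCU02815) had a NAT (I:9023003-9024632, minus strand) that shared 374 bp and reached 1256 bp into a gap of 8018 bp. At ric8 (NCU02788), whose product acts on the alpha subunits of G proteins, the shape differed. The NAT (I:9191574-9193995, minus strand) started in exon 3, the last exon, shared 1695 bp and ended 606 bp upstream, 150 bp short of the divergent gene NCU02789.

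No gene was a partner in the lists for carotenoid synthesis (0 of 5), conidiation (0 of 10), chromatin (0 of 29), histones (0 of 9), RNA interference (0 of 10), cellulose breakdown (0 of 13) or regulation of nitrogen, sulphur and phosphorus (0 of 17). Antisense transcripts in other arrangements were present in each of these lists, at 1 to 5 genes. In the lists with partners, any antisense transcript was present at 11 of 24 light and clock genes, 6 of 16 MAP kinase genes and 3 of 20 G protein, cAMP and RAS genes. The share over all annotated genes is not given here, so these counts are not read as few or many. At the 2.80% of all genes, lists of this size hold few partners or none, and these counts show no absence beyond that. The chromatin list held 36 symbols, of which 29 matched a gene. Neither deleted gene of the study, set-1 or dim-5, was among the partners with a symbol, a check made by symbol only. In all, 6 of 152 listed genes were partners.

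Genes of cell structure and stress defence were among the partners with symbols. At sod-1 (NCU02133), which encodes copper-zinc superoxide dismutase, the NAT (I:1136390-1137580, plus strand) shared 241 bp of exon 1 and reached 950 bp. The alpha-tubulin gene tba-2 (NCU09468) had 2 spliced NATs whose introns of 85 and 202 nt ended at the same base, just inside the gene. They shared 356 and 201 bp with exon 1, ended 369 and 328 bp upstream, and entered the tandem gene NCU09467 by 45 and 4 bp. The chitin synthase gene chs-4 (NCU09324) had 2 NATs with 12 and 5 bp of overlap and a reach of 809 and 789 bp. The shortest overlap of all, 3 bp, was at vma-11 (NCU00667), a gene of the vacuolar ATPase, and its NAT ran 1290 bp to a point 131 bp from the divergent gene rgf1. At mus-52 (NCU00077), the gene for the Ku80 protein of DNA end joining, a NAT of 237 nt shared 222 bp and reached only 15 bp. Among these 5 partners reach ran from 15 to 1290 bp and overlap from 3 to 356 bp.

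Metabolic and transport genes showed both deep and shallow starts. At tkl-1 (NCU05808), for transketolase, the NAT shared 1779 bp and reached 142 bp. At cao-1 (NCU07008), of the carotenoid oxygenase family, it started in exon 2, shared 1841 bp and reached 800 bp. At cax (NCU07075), for a calcium-proton exchanger, it shared 330 bp and reached 1390 bp. At sre (NCU07728), for a repressor of siderophore synthesis, it shared 378 bp and reached 82 bp. The longest reach among genes with symbols outside the light and clock list was 2860 bp at sah-2, with 1019 bp shared, followed by those of ff-1. The NAT of stk-20, a serine/threonine kinase gene, shared 1395 bp and reached 236 bp, and the 2 of stk-52, another, shared 146 and 34 bp and reached 2109 and 1953 bp.

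**Figure D3:**
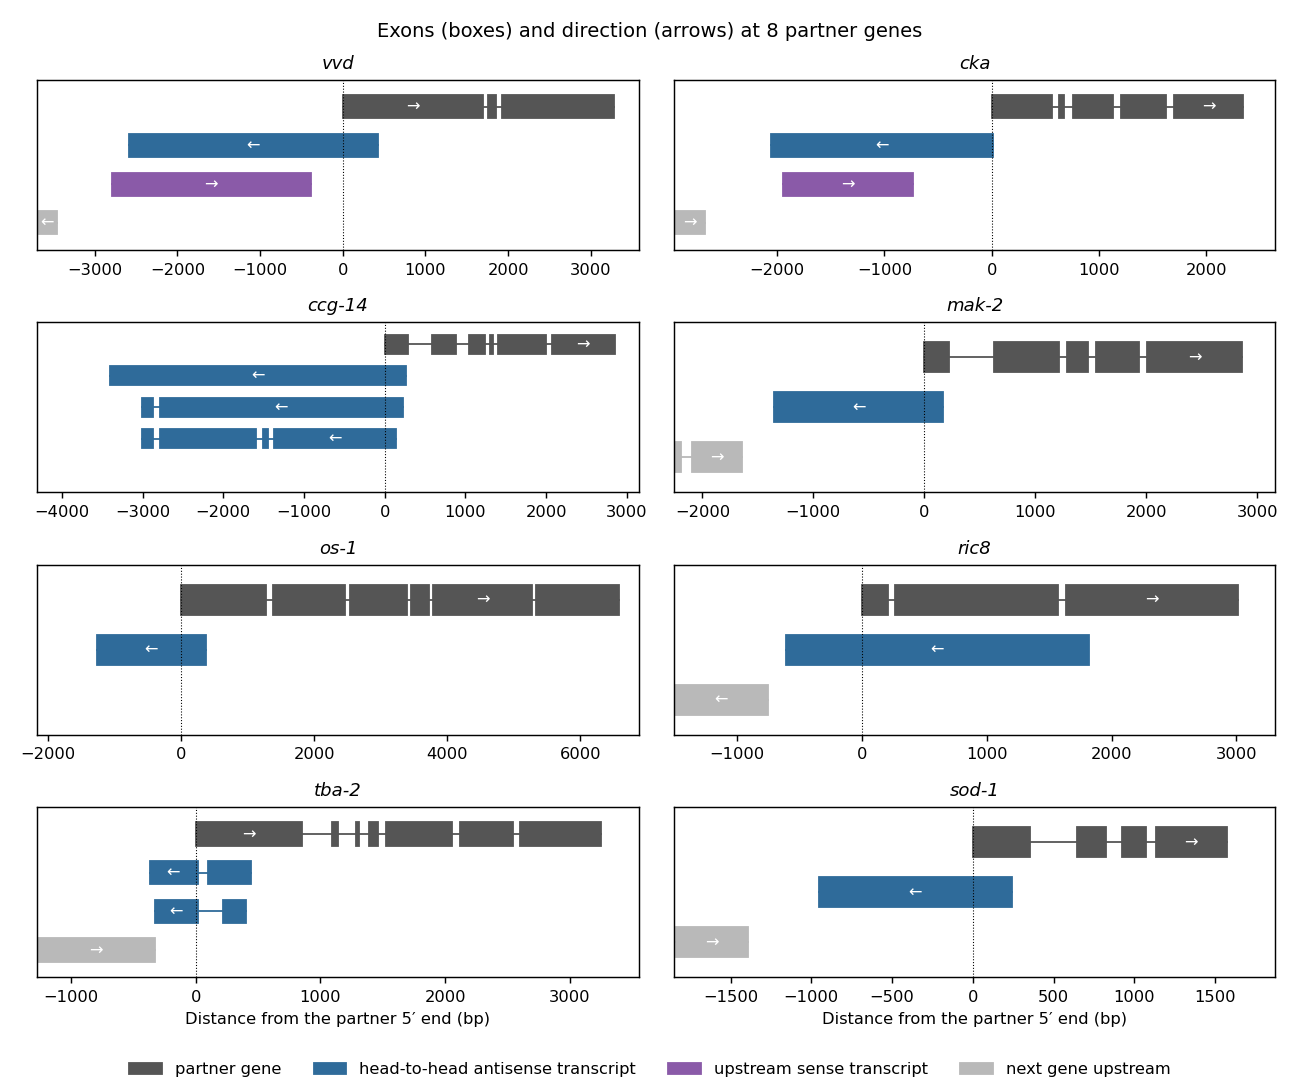
Exons (boxes) and direction of transcription (arrows) at 8 partner genes, by distance in bp from the partner's 5′ end (x axis), each drawn so that the partner runs to the right. The head-to-head antisense transcripts run left across the dotted 5′ end, by 2583 bp at vvd and by 606 bp at ric8, and the upstream sense transcripts at vvd and cka lie under them.

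Partners with several members took all of them from a single assembly locus, except ccg-14. NCU02894 had 4, with 2 or 3 exons and 109 to 206 bp of overlap. NCU09136 also had 4, with 2 to 4 exons and 702 to 1892 bp of overlap, and these were antisense to its tandem neighbour NCU09135 as well, by up to 713 bp. The partners with 3 members were NCU16371, NCU16854, ff-1 and ccg-14. At ff-1 the NATs shared 356, 243 and 146 bp and reached 2341, 2206 and 2504 bp.

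Some NATs met a transcript of the partner's strand upstream. In 48 members (15.9%) the NAT shared bases, upstream of the partner, with an unannotated sense transcript, by a median of 383.5 bp (17 to 2195 bp). In 33 of the 48 this sense transcript belonged to no annotated gene and in 15 it was an isoform of another gene. At the gene itself, 114 members (37.7%) shared bases with an unannotated isoform of the partner. Such an isoform was present at 43.0% of partners and at 36.4% of all annotated genes. An isoform of the partner began upstream of the annotated 5′ end at 53 of 272 partners (19.5%), and over all annotated genes the share was 14.3%. The extension at these 53 had a median of 399 bp. Antisense transcripts in another arrangement were present as well at 53 partners (19.5%), inside at 24, tail-to-tail at 22 and spanning at 7. The matching share over all annotated genes is not given here, so no co-occurrence is read from this count.

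Head-to-head NATs were then compared with the 802 tail-to-tail NATs, which meet the mirror image of the rule. Overlap and reach are values that the rule used in both classes, so they are given as descriptions without a test. Median overlap with the partner was 309 bp for head-to-head and 543.5 bp for tail-to-tail NATs, a log2 ratio of -0.81, and the ratio was -0.49 when an end at least 100 bp past the partner was required. Median reach past the partner's end was 415 and 425.5 bp (log2 ratio -0.04). The other measures were tested by 2-sided Fisher's exact tests of counts, for length as the numbers above the pooled median. The threshold was 0.05 after Benjamini-Hochberg adjustment. Head-to-head NATs were more often single-exon, 71.5% against 63.5%, a difference of 8.06 percentage points (exact adjusted p = 0.0256). This call was lost in 5 of 9 alternatives, with differences of 3.08 to 7.55 points, the lowest with 1 transcript per assembly locus (exact adjusted p = 0.421).

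Exonic length and isoforms of the partner gave smaller differences. Median exonic length was 1121.5 nt for head-to-head and 1233 nt for tail-to-tail NATs (log2 ratio -0.14, exact adjusted p = 0.234). A partner with an isoform begun upstream of its 5′ end was found for 46 of 250 genes (18.4%, interval 13.8 to 23.8) with head-to-head and 97 of 643 (15.1%, interval 12.4 to 18.1) with tail-to-tail NATs, after genes that had both were left out (exact adjusted p = 0.269). Both differences missed the threshold, which does not show that the classes are alike.

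**Figure D4:**
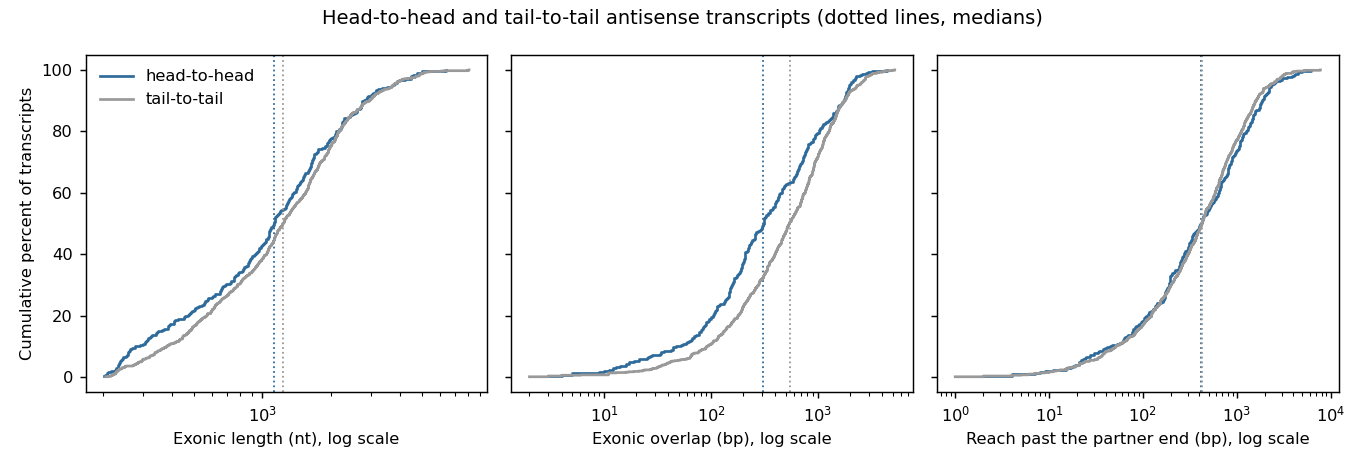
Cumulative percent of transcripts (y axis) by exonic length in nt, exonic overlap with the partner in bp and reach past the partner's end in bp (x axes, log scale), for 302 head-to-head and 802 tail-to-tail antisense transcripts. Dotted lines mark the medians, which stand apart for overlap (309 and 543.5 bp) and nearly meet for reach (415 and 425.5 bp).

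The remaining measure was the nearness of an annotated gene on the NAT's own strand beyond the partner. For head-to-head NATs this is the next gene downstream of the NAT's end, and for tail-to-tail NATs it is the gene behind the NAT's start. Such a gene lay within 500 bp of 66 of 302 head-to-head NATs (21.9%, interval 17.3 to 26.9) and of 46 of 802 tail-to-tail NATs (5.74%, interval 4.23 to 7.58), a difference of 16.1 points (exact adjusted p = 8.20e-13). In 65 of the 66 it was the divergent gene upstream of the partner. This measure is not free of the rule, which in both classes dropped transcripts sharing an exon base with a gene on their own strand. The test cannot separate the difference from that exclusion. The call was lost among transcripts whose next gene beyond the partner lay on their own strand, an alternative chosen after seeing the data, at 65 of 164 (39.6%) against 43 of 144 (29.9%), a difference of 9.77 points (exact adjusted p = 0.281). The next gene beyond the partner lay on the NAT's strand for 164 of 302 head-to-head and 144 of 802 tail-to-tail NATs, and the part of this in the difference was not tested.

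At the edge of the rule, the members just inside passed the 5′ end of their partner by 2 bp (NCU09057), 4 bp (NCU06058) and 4 bp (NCU03087). Just outside, antisense transcripts ended level with the 5′ end at NCU00925, 1 bp short of it at NCU06551, 3 bp short at NCU04742 and NCU09788, and 4 bp short at NCU07958 and NCU07733. The members with least overlap after vma-11 shared 4 bp at NCU08052, 5 bp at chs-4 and NCU00938, and 9 bp at NCU05219.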

How the data were processed

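Groups came from the sample titles (WT, Δset-1 and Δdim-5, at DD24 or LP30, 2 replicates each). Per the labels, total RNA was depleted of ribosomal RNA and sequenced as 100 bp paired-end reads. The authors mapped reads to NC12 with HISAT2 2.1.0, assembled each sample with StringTie 1.3.3b and merged the assemblies with the NC12 annotation. The deposited file holds positions, strands and a constant score with no expression in it, and strands were taken as the file gives them. The labels name a TruSeq kit version that does not by its name state that strand is kept. Cuffdiff values were not used here. The file pools all 12 libraries, so depth and replicate error are unknown.

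Transcripts were classified by shared exon bases and by the ends passed, with the partner being the opposite-strand annotated transcript that shared most bases. RefSeq gene symbols matched 9729 of 9730 genes, all with the same start and end. Shares have exact Clopper-Pearson 95% intervals, which treat transcripts as independent. Fisher's exact tests were adjusted by Benjamini-Hochberg over 6 tests. Overlap and reach were among the 6, but the rule used them, so their p-values are not given. Nearness to a gene on the own strand is limited by the rule in part, through the transcripts it dropped. The classification and tests were tested on simulated data. The members, the 10 gene lists and the naming rule were chosen with earlier results of these data known. That rule names members at listed genes, the 5 with most overlap, furthest reach, most exons, largest second overlap or largest span covered, those at the edge, partners with 3 or more members, and partners with a symbol. Members with least overlap, gene NCU16635 and gene NCU08485 were named after their values were seen. Alternatives numbered 11 planned and 3 added after seeing the data. Python 3.11.15, numpy 2.4.6, scipy 1.17.1 and matplotlib 3.10.9 were used.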

Additional observations from a re-analysis of the deposited data

How the results depend on the processing

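The 302 head-to-head NATs became 86, and 22.7% of those passing only 1 end, when 2 or more exons were required. In the other alternatives their number stayed between 245 and 303, and at least 100 bp past the end kept 247, lost 55 and gained 53 that had run past both ends. The single-exon share was 65.7% with at least 100 bp past the end and 78.8% with 1 transcript per assembly locus. The single-exon difference lost its call with at least 100 bp shared (7.55 points, exact adjusted p = 0.0702), at least 100 bp past the end (5.75 points, exact adjusted p = 0.179), 1 transcript per locus (3.08 points, exact adjusted p = 0.421), overlap of whole spans (6.92 points, exact adjusted p = 0.0671) and, chosen after seeing the data, 50 bp shared and 50 bp past (5.22 points, exact adjusted p = 0.271). The log2 ratio of overlap, given without a test, was -0.49 with at least 100 bp past the end and -0.55 with 50 bp shared and past. Nearness of a gene on the own strand stayed subject to the rule's exclusion in every alternative, so no count of alternatives tests that exclusion. Its difference kept its call in 12 of 13 alternatives and lost it among NATs whose next gene lay on that strand (9.77 points, exact adjusted p = 0.281). The cause of these changes was not tested. No paired analysis was possible because the deposited annotation pools all replicates and holds no value per library, and for the same reason no replicate could be left out. Weakly transcribed NATs may be missing or broken at unknown depth.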

Other observations

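Head-to-head NATs occurred on all 7 chromosomes, with 77 members on I, 46 on II, 33 on III, 43 on IV, 37 on V, 27 on VI and 39 on VII. Their partners made up 2.15% of the annotated genes on V at the lowest and 3.99% on II at the highest, without a test. The partner transcript's span had a median of 1948 bp over the members, and the spans of all annotated transcripts had a median of 2200 bp. Partners with a single exon accounted for 21.2% of members, and 16.8% of annotated transcripts had a single exon. Some symbols recurred among the partners. Of 53 genes with an stk symbol 2 were partners, and of 4 with an emp symbol 2 were. Over all genes with a symbol the share was 2.68%. Only symbols that recurred are given here, without a test, and no trend is read from them.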
